A study of Mus musculus with 30 samples.

Results

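MHC class I and complement proteins have been linked to the removal of synapses. The 10 genes examined here include the class I genes B2m, H2-D1 and H2-K1 and the complement genes C1qa, C1qb, C1qc, C3 and C4b. The class II genes Cd74 and H2-Aa complete the set. Every probe set of the 3 array types was taken whose annotation gave one of these symbols alone, which found 17 of 36899 probe sets, for 9 of the 10 genes. C3 was not analysed here, since no probe set carried its symbol alone. Another 5 probe sets were annotated to one of the genes together with others and were left out. Of the 17 probe sets, 12 for 8 genes were bright enough to be tested. The remaining 5, which include the one for C4b, were not.

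The samples were primary visual cortex (V1) dissected from mouse litters at postnatal day 14 (P14, 3 litters), day 28 (P28, 3 litters) and day 60 (P60, 4 litters). The mice had standard rearing and carried no other treatment. Strain, sex and the number of animals per litter are not given in the sources used here. Every sample title opens with the same litter label and then gives a second litter number, which was taken as the litter. Every p-value takes the 10 litters to be separate. Each litter was hybridised to Affymetrix MG-U74Av2, MG-U74Bv2 and MG-U74Cv2 arrays, called chips A, B and C, and each value is a signal intensity on a linear scale from Affymetrix's MAS5 algorithm. Signals of different probe sets cannot be set against each other, because probes differ in brightness.

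MHC class I molecules consist of a heavy chain, such as those made from H2-D1 and H2-K1, and the light chain beta-2-microglobulin from B2m. They present peptides to T cells, and in the visual system they have also been studied in neurons, where they take part in synapse elimination and plasticity. C1q is a complex of the A, B and C chains that starts the classical complement cascade, in which C4 and then C3 are cleaved and deposited. In the brain C1q is made largely by microglia, which engulf tagged synapses through complement receptors. MHC class II molecules such as the one with the H2-Aa alpha chain, and the invariant chain Cd74 that escorts them, are known mainly from antigen-presenting cells.

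The promoters of the class I genes and of H2-Aa are shown because they share a set of short motifs. They are the 250 bases before the transcript start, 5′ to 3′, from RefSeq (GRCm38.p6), using the first start listed for each gene. RefSeq lists more than 1 start for H2-K1. H2-K1 is at chr17:34000348-34000597 on the minus strand, H2-D1 at chr17:35262844-35263093 on the plus strand, B2m at chr2:122147437-122147686 on the plus strand, and H2-Aa at chr17:34287824-34288073 on the minus strand. Capitals mark matches on either strand to the NF-kB consensus, to the interferon regulatory factor core AANNGAAA, to TGACG of the cyclic AMP response element, or to CCAAT.
H2-K1: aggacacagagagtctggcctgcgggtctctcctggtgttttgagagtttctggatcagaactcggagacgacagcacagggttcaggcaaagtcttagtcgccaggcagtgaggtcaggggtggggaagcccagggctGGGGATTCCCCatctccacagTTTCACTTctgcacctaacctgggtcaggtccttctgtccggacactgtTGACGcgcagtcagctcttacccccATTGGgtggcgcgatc
H2-D1: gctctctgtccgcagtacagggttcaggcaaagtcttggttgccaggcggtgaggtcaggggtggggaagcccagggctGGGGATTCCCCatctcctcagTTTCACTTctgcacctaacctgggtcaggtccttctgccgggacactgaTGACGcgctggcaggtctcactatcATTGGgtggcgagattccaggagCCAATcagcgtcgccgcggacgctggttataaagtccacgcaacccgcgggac
B2m: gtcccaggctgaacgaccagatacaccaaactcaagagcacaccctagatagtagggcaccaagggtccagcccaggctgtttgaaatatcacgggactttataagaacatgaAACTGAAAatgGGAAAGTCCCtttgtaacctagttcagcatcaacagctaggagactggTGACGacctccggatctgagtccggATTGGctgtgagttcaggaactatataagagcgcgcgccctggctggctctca
H2-Aa: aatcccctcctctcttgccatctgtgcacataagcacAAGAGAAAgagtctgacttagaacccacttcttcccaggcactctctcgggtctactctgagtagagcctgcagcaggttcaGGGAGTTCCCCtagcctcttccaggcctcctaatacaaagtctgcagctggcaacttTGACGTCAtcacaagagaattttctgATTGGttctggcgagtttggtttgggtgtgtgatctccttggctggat
The H2-K1 and H2-D1 sequences were identical at 166 of 190 aligned bases, or 87.4%. In H2-K1, H2-D1 and H2-Aa the NF-kB match is a pair of matches overlapping by all but 1 base. These motifs were chosen after the sequences had been seen. Each of the 4 promoters held all 4 motifs, which 25 of 27025 promoters in the table did (0.093%). Singly, the NF-kB consensus was in 7% of promoters, AANNGAAA in 21.6%, TGACG in 17.9% and CCAAT in 34.5%. Of the other genes, RefSeq's table held C1qb, C1qc and C3, so that 7 of 10 matched. The C1qb promoter held TGACG alone among these motifs, C1qc held the NF-kB consensus and AANNGAAA, and C3 held AANNGAAA. A match is a run of letters and does not show that a factor binds there.

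The RNA of P14 litter 1 stood apart from the rest. The ratio of the 3' to the 5' control signal, which is raised when transcripts are shortened, reached 9.57 to 12.2 (Gapdh) and 12.2 to 12.8 (Actb) on its arrays. The other 27 arrays gave 0.741 to 1.32 (Gapdh) and 1.04 to 1.5 (Actb). On chip A, the correlation of an array with its peers averaged 0.796 for P14 litter 1, 0.862 for P60 litter 1 and 0.882 for P60 litter 4, below the 0.899 to 0.922 of the remaining arrays. On chip C, P60 litter 2 was lowest at 0.789. A restricted set of arrays leaves out P14 litter 1 on every chip, P60 litters 1 and 4 on chips A and B, and P60 litter 2 on chip C. All 13 genes of a fixed neuron list were bright enough to be tested, with summed signals of 63875 to 65374 at P14, 52409 to 61359 at P28 and 45241 to 59530 at P60.

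None of the 12 tested probe sets was called as changed between any of the ages, which does not show that their signals stayed level. A change was called at an adjusted p under 0.05 by limma, a linear model fitted to every probe set, with Benjamini-Hochberg adjustment over all 20724 tested probe sets. Over all tested probe sets the share called was 0.00483% for P28 against P14, 0% for P60 against P28 and 0.396% for P60 against P14, so a count of 0 among 12 is near the background. A joint test of the 3 ages called 0.111% of all probe sets and none of the 12, with adjusted p-values from 0.363 upwards. At an unadjusted p under 0.05, no member probe set passed for P28 against P14, 1 passed for P60 against P28 and 2 passed for P60 against P14, where the background shares were 7.87%, 5.43% and 15.7%. Without P14 litter 1 there was again no call among the 12, with background shares of 0.125%, 0.00483% and 2.4%, and the restricted set gave none either, with shares of 1%, 0% and 2.13%. Unadjusted p-values under 0.05 then numbered 3, 2 and 6 of the 12 without P14 litter 1, where 10.3%, 9.08% and 19.1% of all probe sets had one, and 4, 0 and 3 in the restricted set, where 15.6%, 7.19% and 18.1% had one. Changes below are differences of log2 (signal plus a constant of 38.6 on chip A or 44.0 on chip C), later age minus earlier, with limma's 95% interval. The tissue was bulk cortex, so fewer cells of a type and less RNA per cell cannot be told apart.

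The changes between neighbouring ages leaned one way early and had no common direction later. For P28 against P14, 10 of the 12 changes were above 0, with a median of 0.39, whereas 52.9% of all tested probe sets were above 0, with a median of 0.03. For P60 against P28, 5 of 12 were above 0, with a median of -0.05, beside 49% and a median of -0.01 for all. For P60 against P14, 9 of 12 were above 0, with a median of 0.32, beside 54.8% and a median of 0.06. With all litters, the P28 litters lay wholly above the P14 litters for 2 of the 12 (9.45% of all tested probe sets) and wholly below for none (8.41%). The P60 litters lay wholly above the P28 litters for none (3.9%) and wholly below for 1 (4.46%), and wholly above the P14 litters for 1 (6.61%) and wholly below for none (6.42%). By sign and median, the early lean was weaker without P14 litter 1. There, 7 of the 12 changes for P28 against P14 were above 0, with a median of 0.22, beside 50.6% and a median of 0.005 for all. For P60 against P14, 7 of 12 were above 0 without that litter, with a median of 0.41, beside 51.9% and a median of 0.02 for all. Also without it, the P28 litters all lay above the P14 litters for 6 of the 12 probe sets and all below for 1, beside 18.9% and 18.7% of all tested probe sets. The P60 litters lay all above for 4 and all below for 2, beside 13.9% and 14.9%. In the restricted set, 6 of 12 changes for P60 against P14 were above 0, with a median of 0.05. All tested probe sets there had 51.1% above 0 and a median of 0.01. For P60 against P28 the restricted set had 3 of 12 above 0, with a median of -0.17, beside 50.1% and a median of 0.0007 for all.

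**Figure D1:**
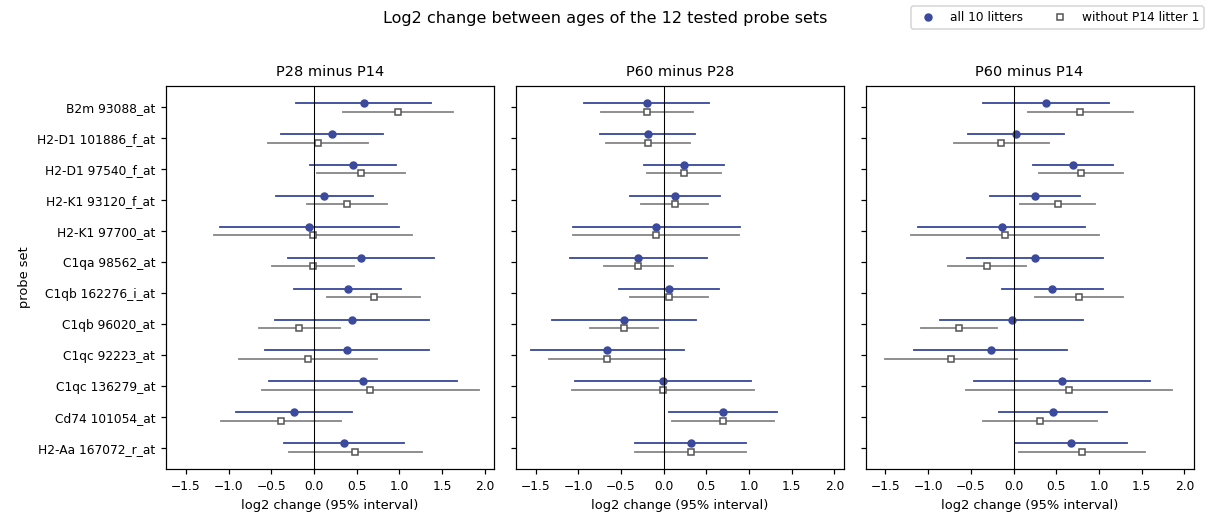
Log2 change of the 12 tested probe sets (rows) for P28 minus P14, P60 minus P28 and P60 minus P14, with 95% intervals from limma. Filled circles use all 10 litters and open squares leave out P14 litter 1. The intervals of all 10 litters cross 0 except for Cd74 in P60 minus P28 and for H2-D1 97540_f_at and H2-Aa 167072_r_at in P60 minus P14, and the C1qa and C1qb 96020_at points for P60 minus P14 move to the left without that litter.

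Among the class I genes, H2-D1, which encodes the heavy chain H-2D, had the smallest p-value. Its probe set 97540_f_at had signals of 393, 277 and 366 at P14, 380, 639 and 463 at P28, and 532, 666, 550 and 568 at P60. All 4 P60 litters lay above all 3 P14 litters, and P28 overlapped both. Signals of all P60 litters above all P14 litters were found for this 1 probe set among the 12, beside 6.61% of all tested probe sets. The mean was 579 ± 59.8 at P60 (SD, n = 4), against 345 ± 61 at P14 (SD, n = 3), 1.62-fold higher on the scale of signal plus constant. This change of 0.69 (95% interval 0.23 to 1.16) had a limma p = 0.00732 and an adjusted p = 0.163. The change for P28 against P14 was 0.46 (-0.05 to 0.96) and that for P60 against P28 was 0.24 (-0.23 to 0.71). Without P14 litter 1 the P60 against P14 change was 0.79 (limma adjusted p = 0.0884), and in the restricted set it was 0.85 (adjusted p = 0.109).

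The second tested H2-D1 probe set did not show that difference. Probe set 101886_f_at had signals of 421, 580 and 663 at P14, 593, 554 and 798 at P28, and 473, 396, 761 and 674 at P60. The ages overlapped throughout, and its change for P60 against P14 was 0.03 (-0.53 to 0.59). Over the 10 litters the log2 signals of the pair of H2-D1 probe sets had a Pearson correlation of -0.15. Both have the suffix f, which marks probe sets whose probes match a family of sequences, so other class I heavy chains could contribute to either. The third H2-D1 probe set, 97541_f_at, was between 7.12 and 72.1 in every litter, under the level of 98.4 that 95% of the values for Bacillus control transcripts on chip A stayed below.

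H2-K1, which encodes the heavy chain H-2K, overlapped between all ages on both tested probe sets when all litters were used. Probe set 93120_f_at had signals of 905, 528 and 487 at P14, 654, 691 and 678 at P28, and 890, 552, 707 and 866 at P60. P14 litter 1 had the highest signal of the 10 litters. The change for P60 against P14 was 0.25 (-0.28 to 0.78), and without P14 litter 1 it was 0.52 (0.07 to 0.96, limma adjusted p = 0.196). Without that litter, all P28 litters and all P60 litters lay above P14 litters 2 and 3. Of all tested probe sets, 18.9% lay wholly above in this way at P28 and 13.9% at P60. Probe set 97700_at was far more scattered at P60, where it was 411, 56.6, 262 and 137, than at P14, where it lay between 191 and 216. Its change for P60 against P14 was -0.14 (-1.12 to 0.84), the widest interval among the class I probe sets. The last H2-K1 probe set, 97125_f_at, lay between 32.8 and 114 and was not tested.

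B2m, the light chain that all of these heavy chains need to reach the cell surface, varied most between the P14 litters. Its probe set 93088_at had signals of 817, 408 and 272 at P14, 828, 578 and 706 at P28, and 646, 598, 387 and 866 at P60. P14 litter 1 was as high as the highest P28 and P60 litters, whereas P14 litters 2 and 3 were below all P28 litters. With P14 litter 1 left out, 18.9% of all tested probe sets lay wholly above at P28 in this way. The change for P28 against P14 was 0.58 (-0.20 to 1.37, limma adjusted p = 0.753), and for P60 against P14 it was 0.38 (-0.35 to 1.12, adjusted p = 0.6). Without P14 litter 1 these became 0.98 (limma adjusted p = 0.237) and 0.78 (adjusted p = 0.158). In the restricted set the change for P28 against P14 was again 0.98 and its adjusted p by limma was 0.0873. Whether the shortened RNA of that litter plays a part was not tested.

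**Figure D2:**
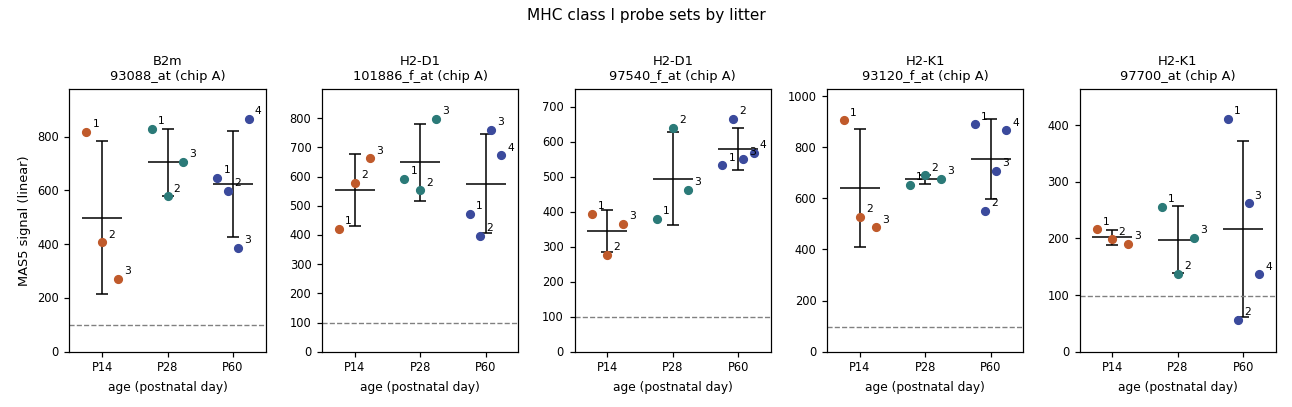
MAS5 signal (linear scale) of the 5 tested class I probe sets by age, with 1 point per litter labelled by its number, bars for the mean ± SD (n = 3 at P14 and P28, n = 4 at P60) and a dashed line at the Bacillus control level of 98.4. The P60 points of H2-D1 97540_f_at lie between 532 and 666, above the P14 points of 277 to 393, and P14 litter 1 is the highest P14 point for B2m and for H2-K1 93120_f_at.

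The C1q chains gave no called change. For P28 against P14, 3 of their 5 probe sets changed sign without P14 litter 1, whereas C1qb 162276_i_at and C1qc 136279_at stayed above 0 in all 17 alternatives. C1qa, the A chain, had signals of 243, 752 and 1010 at P14, 977, 872 and 756 at P28, and 710, 643, 895 and 574 at P60. P14 litter 1 was the lowest of the 10 litters, and P14 litter 3 was the highest. The change for P28 against P14 was 0.55 (-0.30 to 1.40, limma adjusted p = 0.784) with all litters and -0.01 without P14 litter 1 (adjusted p = 0.995). For P60 against P14 it was 0.25 with all litters and -0.31 without P14 litter 1 (limma adjusted p = 0.444).

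C1qb, the B chain, was measured by a pair of probe sets that ran opposite ways over the litters. For P28 against P14, though, both were above 0 with all litters, at 0.44 for 96020_at and 0.40 for 162276_i_at. Without P14 litter 1 these changes were -0.17 and 0.70. Probe set 96020_at had signals of 145, 556 and 695 at P14, 666, 496 and 497 at P28, and 347, 407, 449 and 348 at P60. Its P60 litters all lay below its P28 litters, as they did for 4.46% of all tested probe sets, and its mean was 388 ± 49.7 at P60 (SD, n = 4) against 553 ± 97.7 at P28 (SD, n = 3). That change was -0.47 (-1.31 to 0.37, limma adjusted p = 0.905). For P60 against P14 the change was -0.02 with all litters and -0.64 without P14 litter 1 (limma adjusted p = 0.119).

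Probe set 162276_i_at for C1qb had signals of 392, 209 and 170 at P14, 276, 396 and 332 at P28, and 394, 325, 285 and 398 at P60. Here P14 litter 1 was above the other P14 litters, not below them. The change for P60 against P14 was 0.46 (-0.13 to 1.04) with all litters and 0.76 without P14 litter 1 (limma adjusted p = 0.109), so the sign was the opposite of that of 96020_at. Over the 10 litters the pair of C1qb probe sets had a Pearson correlation of -0.66 (permutation p = 0.0377, adjusted over 46 pairs 0.192) and a Spearman correlation of -0.73 (permutation p = 0.02, unadjusted). The Pearson r was -0.59 without P14 litters 2 and 3 and -0.78 without P14 litter 1. The suffix i marks an incomplete probe set, with fewer unique probes than the design required. A direction for C1qb as a gene cannot be given from these probe sets.

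C1qc, the C chain, varied widely between P60 litters. Probe set 92223_at had signals of 571, 1421 and 1698 at P14, 1244, 1857 and 1396 at P28, and 441, 1248, 1398 and 919 at P60. P14 litter 1 and P60 litter 1 were the lowest. The change for P60 against P28 was -0.66 (-1.56 to 0.24, limma adjusted p = 0.897) with all litters and -0.16 in the restricted set, and that for P28 against P14 was 0.39 with all litters and -0.07 without P14 litter 1. Probe set 136279_at on chip C had 310, 336 and 190 at P14, 467, 418 and 401 at P28, and 358, 1162, 452 and 156 at P60. Its P28 litters all lay above its P14 litters, as they did for 9.45% of all tested probe sets. P14 litter 3 and P60 litter 4 were below the Bacillus level of 252 on that chip. The value of 1162 came from P60 litter 2, whose chip C array stood apart.

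C1qa and the C1qb probe set 96020_at moved together over the litters, with a Pearson r of 0.95 (n = 10, permutation p = 0.00044, adjusted over 46 same-chip pairs 0.0202). The Spearman rho was 0.84 (permutation p = 0.00411, unadjusted). Leaving out the 2 litters farthest from the median of C1qa, P14 litters 1 and 3, gave r = 0.77, and leaving out P14 litter 1 alone gave r = 0.83. Of the 46 pairs, the only other with an adjusted Pearson p under 0.05 was H2-K1 93120_f_at with C1qb 162276_i_at (r = 0.84, permutation p = 0.00177, adjusted 0.0407). For that pair rho was 0.77 (permutation p = 0.0124, unadjusted), and r was 0.75 without P14 litters 1 and 3. C1qc 92223_at had r = 0.74 with C1qb 96020_at (adjusted 0.117). These litters span 3 ages and share the array of each litter. C1qa, C1qb and C1qc lie next to each other on chromosome 4.

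P14 litter 1 stood apart in blood cell genes as well as in RNA quality, whereas its microglia genes had no common direction. The summed signal of the 4 blood cell genes that were tested, of 11 listed, was 6543, 18796 and 31634 in the 3 P14 litters, 35499 to 48234 at P28 and 23020 to 67891 at P60. P14 litter 1, lowest for C1qa and C1qb 96020_at, was lowest here too. Of the fixed microglia list, 13 of 28 genes were tested and none changed by the adjusted test, with a summed signal of 7780 to 7904 at P14, 8541 to 8914 at P28 and 8134 to 10680 at P60. In P14 litter 1, 5 of the 13 were the lowest of the 10 litters and 2 were the highest. For the neuron list, also with 13 tested genes, these counts were 4 and 2. The share over all tested probe sets was not counted. Tmem119, a microglial surface protein, was 234 in P14 litter 1 and 684 to 977 in the other litters. Cx3cr1, the fractalkine receptor, was 194 there and 421 to 673 in the others. Ctss, a lysosomal protease, was 1754 there and 665 to 1305 in the others, and Tyrobp, a signalling adaptor, was 340 there and 189 to 313 in the others. Ctss and Tyrobp were added after their values were seen. P2ry13, the microglial receptor with the largest change in the list, averaged 1819 ± 720 at P60 (SD, n = 4) against 1104 ± 132 at P14 (SD, n = 3), a change of 0.62 (limma adjusted p = 0.299). The part of these in the C1q signals was not tested.

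**Figure D3:**
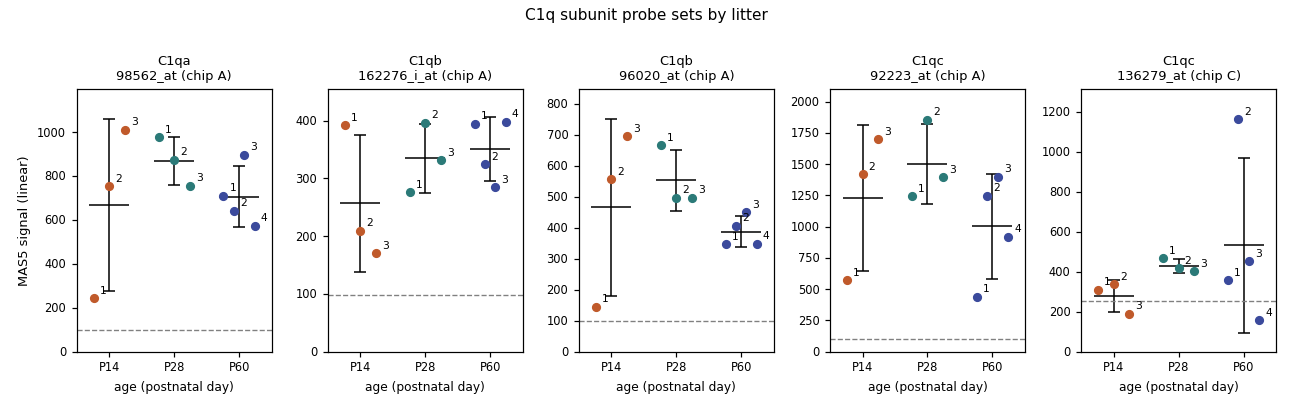
MAS5 signal (linear scale) of the 5 tested C1q probe sets by age, with 1 point per litter labelled by its number, bars for the mean ± SD (n = 3 at P14 and P28, n = 4 at P60) and a dashed line at the Bacillus control level of the chip. P14 litter 1 is the lowest point for C1qa and C1qb 96020_at but the highest P14 point for C1qb 162276_i_at, and the highest point for C1qc 136279_at is P60 litter 2 at 1162.

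C4b, the complement protein cleaved after C1q binds, was not measurable by its probe set 137169_at on chip C. The signals were 91.7, 60.3 and 38.9 at P14, 55.5, 27.1 and 94.8 at P28, and 32.4, 92.5, 288 and 53.4 at P60. Only P60 litter 3, at 288, was above the Bacillus level of 252 on that chip. No direction can be given for it.

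Cd74, the invariant chain, had the largest change between P28 and P60 among the 12, and it was not called. Its probe set 101054_at had signals of 238, 323 and 356 at P14, 199, 254 and 311 at P28, and 669, 376, 267 and 499 at P60. The highest litters were P60 litters 1 and 4, and P60 litter 3 fell within the range of P28. The mean was 453 ± 173 at P60 (SD, n = 4) against 255 ± 56 at P28 (SD, n = 3), 1.62-fold higher on the same scale. This change of 0.69 (0.06 to 1.33) had a limma p = 0.0343 and an adjusted p = 0.894. P60 litters 1 and 4 are those whose chip A arrays stood apart, and without them and P14 litter 1 the change was 0.30 (limma adjusted p = 0.826). For P60 against P14 the change was 0.46 with all litters and -0.09 in that restricted set.

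H2-Aa, the class II alpha chain, was bright on 1 of its 3 probe sets. Probe set 167072_r_at on chip C had signals of 367, 270 and 270 at P14, 403, 386 and 399 at P28, and 728, 578, 478 and 312 at P60. The P28 litters all lay above the P14 litters, as they did for 2 of the 12 probe sets and for 9.45% of all tested probe sets, while P60 litter 4 overlapped P14. The mean was 524 ± 175 at P60 (SD, n = 4) against 303 ± 55.9 at P14 (SD, n = 3), 1.59-fold higher on the same scale. This change of 0.67 (0.01 to 1.32) had a limma p = 0.0458 and an adjusted p = 0.308. Probe set 92866_at on chip A stayed between 20.1 and 31.8, and 169296_at on chip C between 20.5 and 161, below the Bacillus levels of 98.4 and 252 on those chips. The change of 167072_r_at, whose suffix r marks a probe set for which some selection rules were dropped, therefore had no second probe set above background to be set beside it.

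**Figure D4:**
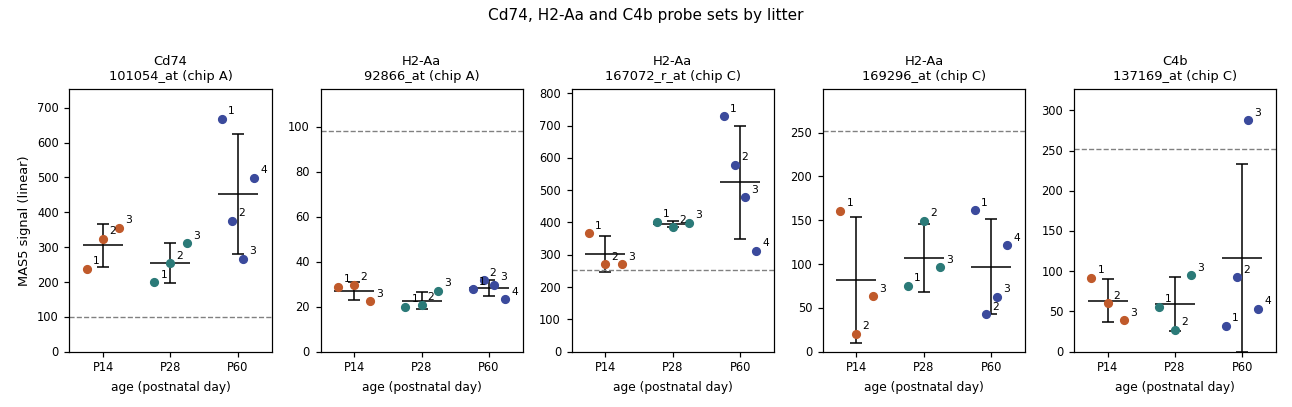
MAS5 signal (linear scale) of the Cd74, H2-Aa and C4b probe sets by age, with 1 point per litter labelled by its number, bars for the mean ± SD (n = 3 at P14 and P28, n = 4 at P60) and a dashed line at the Bacillus control level of the chip. Cd74 is highest in P60 litters 1 and 4 at 669 and 499, and H2-Aa 92866_at and 169296_at stay under the line in every litter while 167072_r_at stays above it. C4b is above its line in P60 litter 3 alone, and its lower P60 bar is cut at 0.

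Lymphocyte and dendritic cell genes were also higher in several P60 litters. Of 18 listed genes 9 were tested, and 8 of 9 changes for P60 against P14 were above 0, with a median of 0.41 and none called. Their summed signal was 4256 to 4833 at P14, 4600 to 5688 at P28, and 6947, 5632, 5106 and 6691 in P60 litters 1 to 4. P60 litters 1 and 4 were highest, as for Cd74. H2-Aa 167072_r_at was also highest in P60 litter 1, at 728, but P60 litter 4 was its lowest P60 litter, at 312. P60 litters 1 and 4 are those whose chip A arrays stood apart. At the same trimmed mean, their median signals on chip A were 251 and 243, against 185 to 212 for the other litters. On chip B these medians were 288 and 287, against 233 to 255. The part of this in the list's signals was not tested. Cd4, a T cell co-receptor, was 502, 288, 264 and 427 in the P60 litters, against 145, 207 and 269 at P14 (change 0.73, limma adjusted p = 0.266). Perivascular and other macrophage genes, of which 4 of 13 were tested, summed to 1927 to 2285 at P14, 1401 to 1894 at P28 and 1166 to 2480 at P60. Their part in the class II signals was not tested.

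Over the 16 fixed lists of genes that act beside these members or mark cell types, only Il33 and Igf2 were called. Both calls were for P60 against P14, where 0.396% of all tested probe sets were called. Il33 was 1 of 23 tested genes of the phagocytosis list, and Igf2 was 1 of 11 of its list. The lists were chosen with earlier results of these data known. Il33, a cytokine that drives microglia to engulf synapses, rose. Its signals were 667, 450 and 540 at P14, 961, 1144 and 830 at P28, and 1696, 2073, 1652 and 1692 at P60, so that no age overlapped another. Shares of all tested probe sets wholly above were 9.45% for P28 over P14, 3.9% for P60 over P28 and 6.61% for P60 over P14. The change for P60 against P14 was 1.60 (SE 0.191, limma adjusted p = 0.00937). Igf2, in the meningeal and fibroblast list, fell by 1.79 on the log2 scale for P60 against P14 (limma adjusted p = 0.00937).

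In the list of 38 class I and antigen loading genes, 15 were tested, none was called, and 13 changes for P60 against P14 were above 0, with a median of 0.25. Psmb10, an immunoproteasome subunit that makes class I peptides, had signals of 693, 1032 and 1004 at P14, 1970, 1749 and 1614 at P28, and 1864, 1920, 1225 and 1563 at P60. Both later ages lay above P14 in every litter, as 9.45% of all tested probe sets did at P28 and 6.61% at P60. The change was 0.95 for P28 against P14 (SE 0.233, limma p = 0.00152, adjusted p = 0.311) and 0.83 for P60 against P14 (adjusted p = 0.121). H2-Bl, a class I gene whose probe set has the suffix f, was 348 to 619 at P60 against 232 to 253 at P14, a change of 0.77 (limma adjusted p = 0.133). H2-Q4, a nonclassical class I gene, averaged 199 ± 124 at P60 (SD, n = 4) against 53.4 ± 30.5 at P14 (SD, n = 3), and its P14 mean was under the Bacillus level.

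In the class II list, 9 of 18 genes were tested and none was called, with a median change of 0.27 for P60 against P14. The 3 largest were H2-Aa, H2-DMb2 and Rfxank. H2-DMb2, which helps load peptides on class II, changed by 1.18 (limma adjusted p = 0.356). Its highest P60 signals, 454 and 382, were in litters 1 and 4, whose chip A arrays stood apart. Its P14 mean of 79.3 was under the Bacillus level of 98.4. Rfxank, a subunit of the factor that binds class II promoters, changed by 0.47 (limma adjusted p = 0.382).

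In the list of complement components, 8 of 27 genes were tested, the C1q genes among them, and none was called. Median changes were 0.41 for P28 against P14, -0.12 for P60 against P28 and 0.35 for P60 against P14. Masp1, a protease of the lectin pathway, was 1629 to 2735 at P60 against 871 to 2302 at P14, a change of 0.53 (limma adjusted p = 0.404). C8b and C8g, parts of the membrane attack complex, changed by 0.60 and 0.75 for P60 against P14 (limma adjusted p = 0.514 and 0.429), and the P14 mean of C8b, 140, was under the chip B Bacillus level of 153.

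Among 11 tested complement regulators and receptors, none was called and the median change for P60 against P14 was 0.33. Clu, a secreted inhibitor of the terminal complex, was 1882 to 3551 at P14, 4003 to 4699 at P28 and 3767 to 4882 at P60. Both later ages lay above P14 in every litter, as 9.45% of all tested probe sets did at P28 and 6.61% at P60. The change for P60 against P14 was 0.67 (SE 0.224, limma adjusted p = 0.192). Nptx2, a neuronal pentraxin that binds C1q, was 786 to 1105 at P60 against 345 to 713 at P14, a change of 0.75 (limma adjusted p = 0.188). Cd93, a receptor of endothelial and myeloid cells, was 21.7 to 130 at P60 against 224 to 274 at P14, a change of -1.48 (limma adjusted p = 0.149). Its P60 mean of 73.1 was under the Bacillus level of 98.4, so the size of that change depends on the added constant.

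The list of class I receptors and partners in neurons had 4 tested genes, no call and a median change of 0.00 for P60 against P14. Fyn, a kinase of synapses and T cells, was 831, 870, 1107 and 687 at P60 against 1499, 1591 and 1696 at P14, without overlap. The P60 litters lay wholly below the P14 litters for 6.42% of all tested probe sets. The change of Fyn was -0.86 (SE 0.19, limma p = 0.00071, adjusted p = 0.0808). Insr and Cd3d changed by 0.22 and 0.15 (limma adjusted p = 0.71 and 0.864). In the phagocytosis list, 23 of 33 genes were tested, with a median of 0.17. Besides Il33, the largest changes were Abca7, a lipid transporter of phagocytes, at -0.99 (limma adjusted p = 0.447), and Ctsz, a lysosomal protease, at 0.73 (adjusted p = 0.173).

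Among 17 tested interferon response genes, none was called, and the median change for P60 against P14 was 0.01, whereas that of the class I list was 0.25. Xaf1, an interferon-induced gene, changed by 2.05 (SE 0.534, limma p = 0.00207, adjusted p = 0.113), with signals of 260 to 1445 at P60 against 41.3 to 305 at P14. Its P14 mean of 149 was under the chip C Bacillus level of 252, so the change depends on the added constant and is not a measured size. Ifi27 changed by 1.00 and Ifnar1, a chain of the type I interferon receptor, by -1.05 (limma adjusted p = 0.346 and 0.359). The other cell type lists, for astrocytes, endothelial and mural cells, choroid plexus and neurons, had no call with 1 probe set per gene. Their median changes for P60 against P14 were 0.11, 0.07, 0.80 and -0.23, and the meningeal and fibroblast list had -0.37. Over all 25 tested probe sets of the neuron list, 1 was called for P60 against P14.

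**Figure D5:**
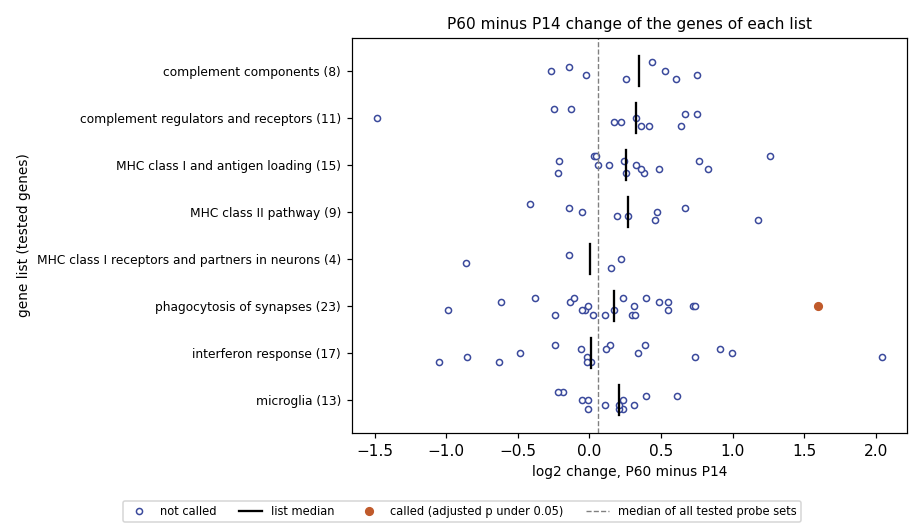
Log2 change for P60 minus P14 (x axis) of the tested genes of 8 fixed lists (rows, number of tested genes in brackets), 1 point per gene, with a bar at each list's median and a dashed line at the median of all tested probe sets, 0.06. The 1 filled point, in the phagocytosis list, is Il33 at 1.60, and the list medians lie between 0.00 and 0.35.

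The genes most like each member across the 10 litters are a description only, since they were picked from 5238 genes on chip A or 2047 on chip C, and P14 litter 1 enters every correlation. C1qa and C1qb 96020_at had the same nearest gene, Cdipt, with r = 0.97 and r = 0.98. Next came Pcyt2 and Antkmt for C1qa and Twf2 and Commd4 for C1qb. C1qc 92223_at was most like Mzt2 (r = 0.97), Hebp1 and Man2b1. B2m was most like Thbd (r = 0.93), Tmem59 and Pmpcb. For H2-D1 97540_f_at the nearest were Atf5 (r = 0.90), Septin4 and Prpf8. For H2-K1 93120_f_at they were Fam126b (r = 0.96), Ubxn8 and Ythdf3. Cd74 was most like Gjb5 (r = 0.94), Col6a1 and Mfng, and H2-Aa 167072_r_at most like 5730405O15Rik (r = 0.89), Gli2 and Cabyr. No member of the 10 appeared among the 3 nearest genes of another.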

How the data were processed

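V1 RNA of 10 mouse litters was measured on 3 Affymetrix array types, 30 arrays in all. Each deposited value is a probe set's signal intensity (linear) on 1 array, from MAS5 per the submitters' processing notes, with a version not given in the sources used here. Arrays came scaled alike in the deposited tables, each with a 2% trimmed mean of 500, and were left so. Detection calls were not used here. Precision is limited by how few arrays there are.

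The annotation supplied with the arrays was brought up to date through gene IDs. Over chips A, B and C, 10855, 10603 and 7739 probe sets had 1 symbol, 396, 178 and 150 had several, and 1237, 1696 and 4045 had none listed.

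To each signal the 20th percentile of its chip type was added (38.6, 57.8 and 44.0) before log2. Probe sets over the chip's median (207, 252 and 183) on 3 or more arrays were tested, which were 6819, 7005 and 6900. Under R 4.3.3, limma 3.58.1 fitted every chip type by itself, with lmFit on age alone followed by eBayes using a variance trend. The p-values were adjusted over all 3 chip types with a threshold of 0.05. The fit was tested on simulated data. For lists, 1 probe set per gene was kept, chip A before B before C, then the brightest. Correlations between members used 100000 permutations.

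All member probe sets are described. The lists' named genes are those called and the 3 with the largest change for P60 against P14 in a list among those with an age mean above the Bacillus level. For the meningeal, blood, macrophage, astrocyte, endothelial, choroid plexus, neuron and lymphocyte lists mainly the summed signal or median is given. The members and lists were chosen with earlier results of these data known. Every sample title opens with the same litter label, and the second number in it was taken as the litter. These second numbers recur across ages, and the labels do not say that such a number is shared. Deviations from the age means correlated at -0.08 to 0.16 between same-numbered litters (median 0.028, 27 pairs of arrays) and at -0.21 to 0.25 between others (median -0.0029, 54 pairs). Not every same-numbered pair was over 0.1, so litters were not treated as pairs.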

Additional observations from a re-analysis of the deposited data

How the results depend on the processing

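No member probe set was called for any comparison under any of the 17 alternatives, which changed the constant to 16 or 100, dropped the low-value filter, used quantile normalization, dropped the variance trend, added the litter number as a replicate block, left out each litter or used the restricted set. No change had been called, so any sign that turned was necessarily that of an uncalled change. In the restricted set the changes for P28 against P14 were -0.013 for C1qa, -0.17 for C1qb 96020_at and -0.070 for C1qc 92223_at, those for P60 against P28 were -0.10 for H2-K1 93120_f_at and -0.11 for C1qb 162276_i_at, and those for P60 against P14 were -0.16 for H2-D1 101886_f_at, -0.19 for C1qa and -0.088 for Cd74. With the litter number as a replicate block, 0 member probe sets were called, and the changes for P60 against P28 were 0.018 for H2-K1 97700_at and 0.40 for C1qc 136279_at, and for P60 against P14 -0.055 for H2-D1 101886_f_at and 0.021 for C1qb 96020_at. Quantile normalization gave -0.038 for C1qb 162276_i_at for P60 against P28 and -0.065 for H2-D1 101886_f_at for P60 against P14. A constant of 100 gave 0.018 for C1qc 136279_at for P60 against P28. Leaving out 1 litter at a time, the changes for P28 against P14 ran -0.013 to 0.93 for C1qa, -0.17 to 0.83 for C1qb 96020_at, -0.070 to 0.68 for C1qc 92223_at, -0.037 to 0.39 for H2-K1 93120_f_at and -0.23 to 0.14 for H2-K1 97700_at. Those for P60 against P28 ran -0.43 to 0.31 for H2-K1 97700_at, -0.056 to 0.18 for C1qb 162276_i_at and -0.47 to 0.40 for C1qc 136279_at. Those for P60 against P14 ran -0.14 to 0.18 for H2-D1 101886_f_at, -0.49 to 0.26 for H2-K1 97700_at, -0.31 to 0.64 for C1qa, -0.64 to 0.36 for C1qb 96020_at and -0.73 to 0.065 for C1qc 92223_at. The cause of these turns was not tested. Counting all probe sets of the listed genes gave 4 calls for P60 against P14, against 2 with 1 probe set per gene. The 5 untested probe sets lay mostly at or below the Bacillus level, so their changes could not be measured.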

Other observations

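H2-DMa, which with H2-DMb2 helps load class II peptides, was looked at after its values were seen. Its signals were 115, 689 and 833 at P14, 705, 807 and 852 at P28, and 243, 435, 506 and 157 at P60. All P60 litters lay below all P28 litters, as they did for 4.46% of all tested probe sets. The lowest P60 signals, 243 and 157, were in litters 1 and 4, whose chip A arrays stood apart. The change for P60 against P28 was -1.26 (SE 0.53, limma p = 0.0355, adjusted p = 0.894), and P14 litter 1 was the lowest of the 10 litters. Hbb-b2, a beta globin gene of red blood cells, was 10683 to 13931 at P28, against 1271, 4794 and 7641 at P14, and its change for P28 against P14 was 1.81 (SE 0.583, limma adjusted p = 0.473).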
